A study of Homo sapiens with 8 samples.

Results

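The genes examined were 51 human genes of DNA repair and of the topoisomerases, with all m6A peaks whose coordinates overlapped their RefSeq GRCh38 bounds by 1 bp or more. They were chosen by name and held 194 of the 23937 peaks of the METTL3-knockout list and 199 of the 29084 peaks of the wild-type list. The peaks come from HEK293T, an established human embryonic kidney line, with METTL3 knocked out (genotype METTL3 knockout) or in its parental form (WT). Chromosome-associated RNA was depleted of ribosomal RNA, and an m6A antibody kit was used to pull down methylated fragments (IP), with input RNA kept beside it; the sequencing libraries keep the strand. There were 2 replicates each of knockout IP, knockout input, wild-type IP and wild-type input, 8 samples in all. The labels name no further treatment of either genotype. They do not say whether the knockout is 1 clone or which piece of METTL3 was deleted. Each deposited list stands for a genotype and carries no values per replicate, so there is no replicate error behind any number below, and no difference between genotypes could be tested. The lists also cannot tell a change in methylation from a change in how much of a transcript was on chromatin or in how well a place was sampled.

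METTL3 is the enzyme at the heart of the methyltransferase that places N6-methyladenosine (m6A) on RNA as it is made. Cells mend DNA by routes that divide the work by lesion. Double-strand breaks are sensed by the ATM and ATR kinases and by the MRE11, RAD50 and NBN complex, and are then joined end to end by the Ku proteins, PRKDC, XRCC4 and LIG4 or copied from a sister chromatid with BRCA1, BRCA2 and their partners. Fanconi genes clear crosslinks, mismatch genes correct replication errors, and excision genes cut out damaged bases and bulky adducts. Translesion polymerases copy past damage, and topoisomerases release the twist that transcription and replication put into DNA.

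In the knockout list METTL3 itself had 0 peaks, against 2 in wild type. Of all protein-coding genes with a wild-type peak, 32.8% lacked one in the knockout, so this does not check the labels. The fold given for a peak is the authors' deposited enrichment of IP over local input at its summit, a linear ratio. Local input is an expected read number, not a count at the summit. It can be an average over 10000 bp scaled to a 200-bp fragment, so it can lie under 1. The number of IP reads over a summit was recovered from the fold and p-value together, and had 1 solution for 96.4% to 99.2% of peaks by list and strand. An IP read weighed less in the knockout fold (scaled by 0.479 on the plus strand and 0.438 on the minus strand) than in the wild-type fold (0.607 and 0.572), so read numbers are not on 1 scale across lists. Sequencing depth is unknown, as neither list states it.

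Peaks were present in 46 of the 51 genes in the knockout list and in 45 in the wild-type list. Of all 20052 protein-coding genes, 34.8% had a knockout peak and 39.6% a wild-type peak. Both lists held peaks in 42 of the 51 genes (background 26.6%), 4 genes had knockout peaks alone, 3 had wild-type peaks alone and 2 had none. The 4 were RAD51C, FANCA, PARP1 and ERCC5, and of all protein-coding genes with a knockout peak 23.6% lacked one in wild type. The 3 were MLH3, ERCC2 and TOP3A, and of those with a wild-type peak 32.8% lacked one in the knockout. As the genes were picked with earlier results of these lists known, that high share is not a result about them. They are also long, with a median of 79.1 kb against 24.1 kb for all protein-coding genes. Across the 51 genes, Spearman's rho between gene length and peak number was 0.609 in the knockout and 0.677 in wild type, beside 0.513 (knockout) and 0.529 (wild type) across all protein-coding genes. Genes are not independent replicates, and the peaks of a list share libraries and depth.

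The balance between genotypes was near even in these genes. The knockout list held 97.5 peaks for every 100 of wild type, beside 80.4 in all protein-coding genes. There were more knockout peaks than wild-type peaks in 21 of the 51 genes (background 15.2%), more wild-type peaks in another 21 (background 24.4%), equal numbers in 7 and none in 2. Both backgrounds include the many genes without any peak. As the genes were picked with earlier results of these lists known, this balance is not a result about them either. Peaks of the repair genes rested on more reads than usual, with a median of 46 IP reads per knockout summit and 34.5 per wild-type summit, beside 33 (knockout) and 26 (wild type) over all protein-coding genes. Whether this read support has a part in the balance was not tested.

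**Figure D1:**
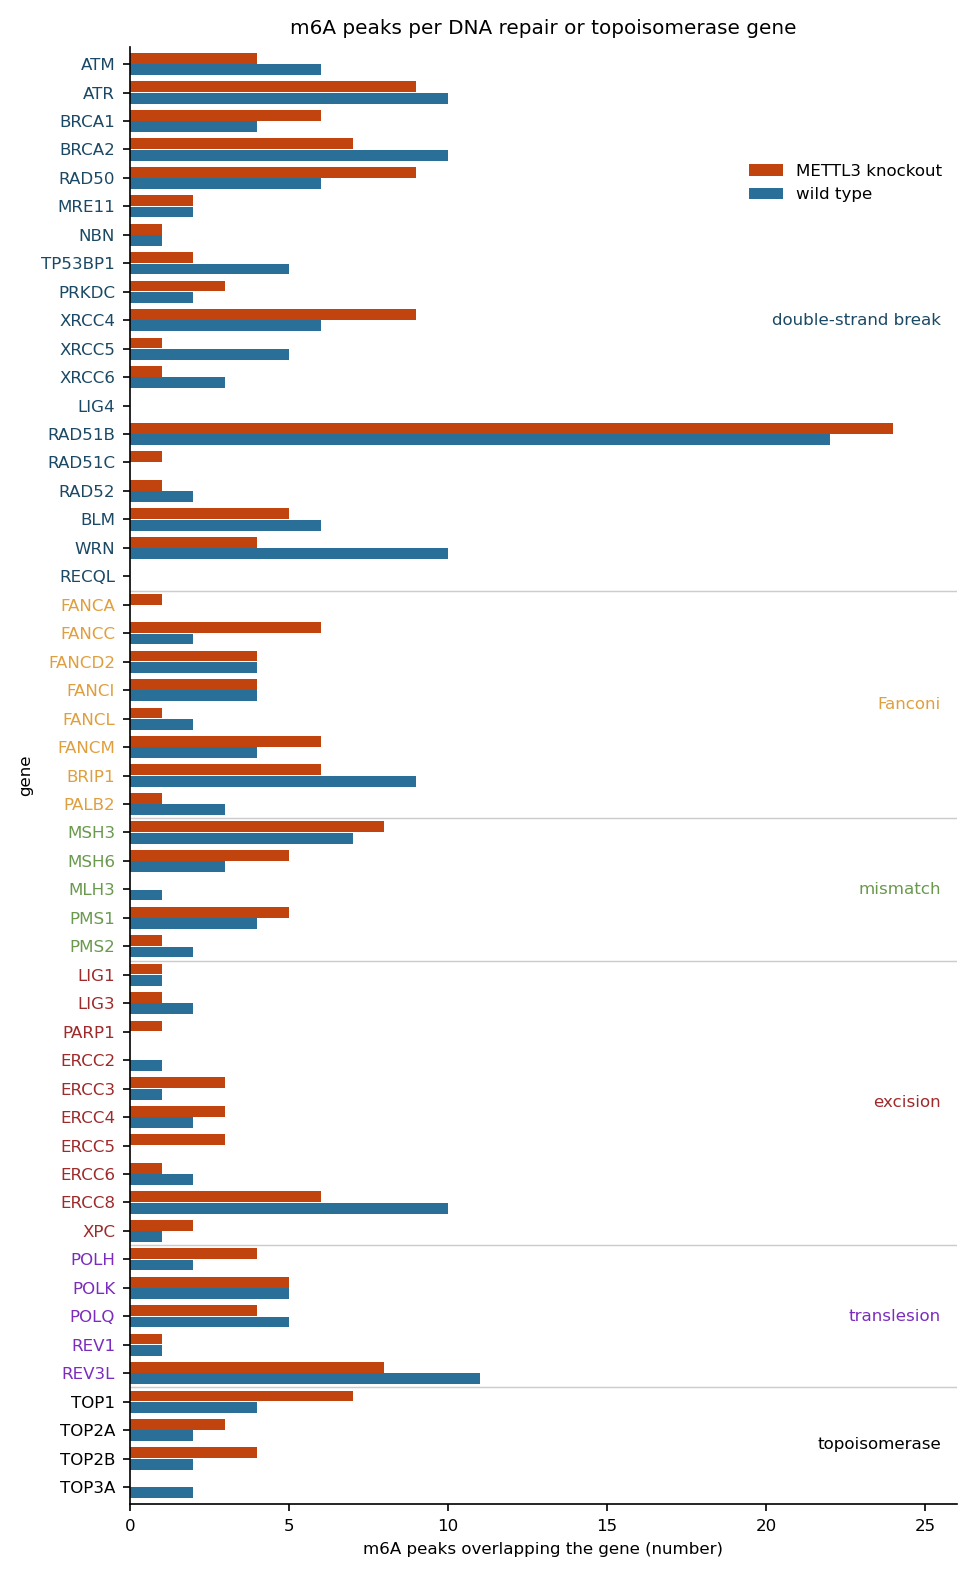
Number of m6A peaks (horizontal axis) overlapping each of the 51 genes, ordered by repair route, in the METTL3 knockout (orange, upper bar) and in wild type (blue, lower bar). RAD51B stands out with 24 knockout and 22 wild-type peaks, and LIG4 and RECQL have none.

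Most peaks did not meet a peak of the other list on the same strand. Of the knockout peaks 134 of 194 had no wild-type partner (69.1%, exact 95% interval 62.1 to 75.5), beside a background of 73.5%. Of the wild-type peaks 139 of 199 had no knockout partner (69.8%, interval 63.0 to 76.1), beside 78.7%. These Clopper-Pearson intervals cover counting error only and treat peaks as independent, though many share a gene. They cannot place a share against its background. Both shares were below their backgrounds, the knockout share by less. For genes picked with earlier results of these lists known, neither share is a result about them. Partners were more frequent at well-covered summits in both lists: above 100 IP reads 12 of 22 knockout peaks and 9 of 14 wild-type peaks had one, and at up to 15 reads 1 of 11 knockout peaks and 2 of 25 wild-type peaks. Over all protein-coding genes the matching shares were 71.4% (knockout) and 70.9% (wild type) above 100 reads and 5.73% (knockout) and 5.27% (wild type) at up to 15. The part of read support in the lower wild-type share was not tested. Of the unpartnered peaks, 17 of 134 in the knockout (12.7%) and 15 of 139 in wild type (10.8%) lay within 1000 bp of a peak of the other list on their strand, beside 9.67% (knockout) and 7.25% (wild type) over all protein-coding genes.

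By route, knockout peaks without a partner numbered 61 of 89 in the double-strand break genes, 22 of 29 in the Fanconi genes, 13 of 19 in mismatch, 14 of 21 in excision, 15 of 22 in translesion and 9 of 14 in the topoisomerases. The wild-type numbers were 72 of 100, 21 of 28, 11 of 17, 13 of 20, 17 of 24 and 5 of 10 in the same order. These shares ran from 64.3% to 75.9% in the knockout and from 50% to 75% in wild type, with exact intervals that overlap throughout. The median fold was 7.43 in the knockout and 6.91 in wild type, beside 7.06 (knockout) and 7.26 (wild type) for all protein-coding genes. Among routes the knockout median was highest in the mismatch genes (8.75) and lowest in the translesion genes (6.52), and the wild-type median was highest in the topoisomerases (7.47) and lowest in the Fanconi genes (6.36).

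**Figure D2:**
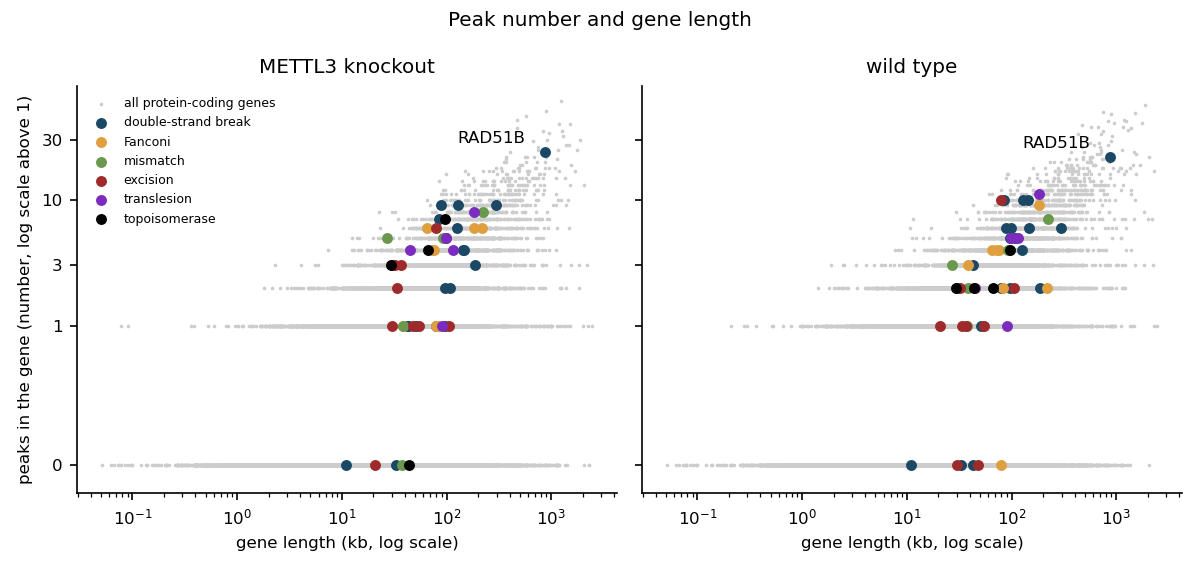
Peak number (vertical axis, log scale above 1) against gene length in kb (log scale) in the METTL3 knockout (left) and in wild type (right). Coloured points are the 51 genes by route, grey points all protein-coding genes, and RAD51B, the longest of the 51, is the coloured point farthest to the right in both.

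Among the damage-sensing kinases and their partners, ATR, the kinase of stalled replication forks, was the richest (chromosome 3, 142449235 to 142578733). It had 9 knockout and 10 wild-type peaks, all on its own minus strand. Its shared places had folds of 8.78 in the knockout (142486462 to 142486670) and 9.55 in wild type (142486431 to 142486633), and of 4.71 in the knockout (142543509 to 142543852) and 3.79 in wild type (142543396 to 142543814). The knockout-only peak at 142492489 to 142492742 was the strongest in the gene, with a fold of 17.2. ATM, the kinase of double-strand breaks, held 4 knockout and 6 wild-type peaks (chromosome 11, 108223067 to 108369102). Its shared peak near the gene start had a fold of 8.75 from 133 IP reads in the knockout (108225184 to 108225404), against 10.2 from 133 IP reads in wild type (108225182 to 108225410). Summits there lay 15 bp apart, 2.23 kb from the 5′ bound. With IP scaled to input depth the place had 63.8 reads in the knockout and 80.7 in wild type. The other shared ATM place had a fold of 4.65 from 27 IP reads in the knockout (108261646 to 108261905), against 9.87 from 26 IP reads in wild type (108261816 to 108262029).

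The complex that grips broken ends was uneven in its peaks. RAD50, its ATPase, had 9 knockout and 6 wild-type peaks with 4 shared places (chromosome 5, 132556977 to 132646349). Its strongest shared place had a fold of 15.5 from 82 IP reads in the knockout (132603124 to 132603367), against 4.09 from 59 IP reads in wild type (132603132 to 132603363). The local input there was 1.6 reads in the knockout and 8 in wild type. The remaining shared RAD50 places had folds of 7.905 in the knockout (132562775 to 132562974) and 7.21 in wild type (132562699 to 132562975), of 7.02 in the knockout (132596721 to 132597141) and 6.18 in wild type (132596643 to 132596914), and of 9.13 in the knockout (132609148 to 132609378) and 5.86 in wild type (132608983 to 132609346). In all 4 the knockout fold was the higher. The RAD50 peak nearest to the gene start was knockout-only, 1.07 kb from the 5′ bound with a fold of 11.9. NBN, the adaptor that brings ATM to the complex, carried 1 peak in each list at the same place, with a fold of 4.99 in the knockout (89953308 to 89953636) and 10.7 in wild type (89953334 to 89953546).

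MRE11, the nuclease of the complex, had 2 peaks in each list, and the shared one was not on its strand. It lay on the plus strand at 94496673 to 94496894 in the knockout with a fold of 14.1, against 12.1 at 94496694 to 94496972 in wild type, while MRE11 is transcribed from the minus strand. The place is inside ANKRD49, a plus-strand gene that starts head to head with MRE11. In the RefSeq promoter table (GRCh38.p14) the MRE11 start printed here, which lies inside the gene's bounds, is separated from the ANKRD49 start by 139 bases, and the peaks began 2.69 kb (knockout) and 2.71 kb (wild type) downstream of the ANKRD49 start. The promoter windows, from 250 bases before to 50 after the start, are shown because they place the 2 transcripts on opposite strands. Capitals mark the bases between the starts, which the windows share in reverse complement.
MRE11, minus strand, chr11:94493795-94494094: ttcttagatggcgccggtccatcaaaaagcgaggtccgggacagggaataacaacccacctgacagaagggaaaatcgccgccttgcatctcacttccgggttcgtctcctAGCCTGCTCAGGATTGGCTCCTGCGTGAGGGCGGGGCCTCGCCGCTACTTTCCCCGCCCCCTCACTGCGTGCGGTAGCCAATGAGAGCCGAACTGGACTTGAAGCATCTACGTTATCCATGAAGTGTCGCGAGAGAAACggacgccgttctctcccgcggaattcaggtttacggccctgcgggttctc
ANKRD49, plus strand, chr11:94493734-94494033: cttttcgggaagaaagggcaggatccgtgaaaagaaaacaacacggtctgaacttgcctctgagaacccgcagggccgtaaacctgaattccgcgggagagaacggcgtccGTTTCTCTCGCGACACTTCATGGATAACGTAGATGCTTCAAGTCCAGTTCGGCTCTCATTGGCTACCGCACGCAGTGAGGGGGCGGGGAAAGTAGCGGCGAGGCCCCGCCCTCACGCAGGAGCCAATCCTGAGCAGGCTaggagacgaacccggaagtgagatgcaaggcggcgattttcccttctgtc
The peaks on the MRE11 strand itself were unpartnered, with a fold of 8.66 in the knockout (94475498 to 94475702) and 7.03 in wild type (94457880 to 94458079).

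Of the genes of homologous recombination, BRCA2, a mediator of strand exchange, had the most shared places of the 51 genes. It had 7 knockout and 10 wild-type peaks (chromosome 13, 32315077 to 32400268), and 6 of the 7 knockout peaks met a wild-type peak. From 5′ to 3′, the folds were 6.78 in the knockout (32332406 to 32332781) and 6.17 in wild type (32332205 to 32332482), then 7.94 in the knockout (32336332 to 32336531) and 6.002 in wild type (32336290 to 32336493), and 7.72 in the knockout (32336975 to 32337336) and 3.61 in wild type (32336712 to 32337239). Farther along they were 8.01 in the knockout (32354977 to 32355207) and 9.74 in wild type (32355049 to 32355269), then 9.05 in the knockout (32381277 to 32381488) and 3.97 in wild type (32381227 to 32381426), and 6.61 in the knockout (32398124 to 32398323) and 5.56 in wild type (32398190 to 32398635). The knockout fold was higher at 5 of these 6 places. The strongest BRCA2 peak, at 32338302 to 32339066 with a fold of 13.0, was in wild type alone. BRCA1, a ubiquitin ligase subunit that steers breaks toward recombination, had 6 knockout and 4 wild-type peaks, of which 3 were shared (chromosome 17, 43044295 to 43170327). Folds were 6.296 in the knockout (43093014 to 43093678) and 6.04 in wild type (43093464 to 43093668), 5.02 in the knockout (43094010 to 43094411) and 5.54 in wild type (43093911 to 43094384), and 6.86 in the knockout (43166073 to 43166456) and 9.12 in wild type (43166092 to 43166435). The last of these lies 4.06 kb from the 5′ bound of BRCA1, also within the bounds of the noncoding genes LOC101929767 and LOC124900391 of the same strand, so its transcript is uncertain.

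RAD51B, which acts in homologous recombination, is the longest of the genes at 863 kb and held the most peaks, 24 in the knockout and 22 in wild type. Its density was 2.78 knockout and 2.55 wild-type peaks per 100 kb, beside 3.73 (knockout) and 3.83 (wild type) over all 51 genes together and 1.41 (knockout) and 1.75 (wild type) over all protein-coding genes. Just 4 places were shared, with folds of 4.58 in the knockout (chromosome 14, 67953462 to 67953913) and 1.92 in wild type (67953460 to 67953910), 7.03 in the knockout (68095705 to 68095907) and 11.3 in wild type (68095708 to 68095995), 7.44 in the knockout (68207410 to 68207674) and 7.71 in wild type (68207451 to 68207653), and 7.55 in the knockout (68231846 to 68232049) and 15.98 in wild type (68231760 to 68232149). Of the 4 places, the knockout fold was higher at the first and lower at the other 3. The strongest wild-type-only peak of the whole route was also here, at chromosome 14, 68540680 to 68540924, with a fold of 13.8. It rested on 25 IP reads over a local input of just 0.173 reads. RAD51C, of the same route, had 1 knockout peak with a fold of 7.19. RAD52, which anneals single strands, had 1 knockout peak and 2 wild-type peaks, all 3 on the strand opposite to the gene and each on 15 or 16 IP reads.

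XRCC4, XRCC5, XRCC6, PRKDC and LIG4 serve classical end joining, and none of their peaks had a partner, where 73.5% of knockout and 78.7% of wild-type peaks in protein-coding genes have none. XRCC4, the scaffold of the ligation complex, had 9 knockout and 6 wild-type peaks spread over 297 kb, with folds of 4.83 to 10.02 in the knockout and 6.56 to 10.9 in wild type. The closest approach between its peaks of the 2 lists was 4.65 kb. All but 1 of its knockout peaks rested on 10 to 23 IP reads, the exception having 41, and its wild-type peaks on 15 to 24. PRKDC, the DNA-dependent kinase, had 3 knockout and 2 wild-type peaks (folds 3.44 to 8.78 in the knockout and 5.29 to 6.33 in wild type), and 1 peak of each list lay 1.70 kb apart. XRCC5 and XRCC6, the Ku subunits, each had 1 knockout peak (folds 7.42 and 7.47), against 5 and 3 wild-type peaks (folds 4.83 to 9.18 and 5.59 to 8.12). The XRCC6 wild-type peak with a fold of 8.12, on 17 IP reads, lay on the strand opposite to the gene. LIG4, the ligase of this route and at 10.9 kb the shortest gene of the list, had none. TP53BP1, which shields ends from resection, had 2 knockout peaks, against 5 in wild type. Its shared place had a fold of 11.8 from 57 IP reads in the knockout (chromosome 15, 43456074 to 43456351), against 9.21 from 24 IP reads in wild type (43456155 to 43456354), and 2 of its wild-type peaks lay opposite to the gene, within the bounds of TUBGCP4.

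The RecQ helicases, which unwind recombination intermediates, differed among themselves. BLM had 5 knockout and 6 wild-type peaks. Its knockout-only peak at chromosome 15, 90749352 to 90749993 had a fold of 19.2 from 62 IP reads. That fold was the highest of any unpartnered peak in the genes grouped by route, which leave out the further repair genes described last. The 2 shared places of BLM pointed in opposite directions. The first had a fold of 12.2 from 39 IP reads in the knockout (chromosome 15, 90732424 to 90732628), against 6.99 from 29 IP reads in wild type (90732422 to 90732621), and the second had a fold of 3.56 from 35 IP reads in the knockout (90795945 to 90796144), against 7.94 from 24 IP reads in wild type (90795991 to 90796335). WRN, which also has an exonuclease, had 4 knockout and 10 wild-type peaks on chromosome 8. Its shared places had folds of 12.4 in the knockout (chromosome 8, 31080807 to 31081151) and 4.65 in wild type (31080808 to 31081023), and of 12.6 in the knockout (31098901 to 31099393) and 17.6 in wild type (31098875 to 31099384). Neither list held a peak in RECQL.

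In the Fanconi genes, FANCM, the translocase that anchors the core complex at crosslinks, had 6 knockout and 4 wild-type peaks (chromosome 14, 45135930 to 45200890). Its knockout-only peak at 45176145 to 45176388 had a fold of 16.2 on 79 IP reads, the highest of the route. Its shared places had folds of 8.86 in the knockout (45152459 to 45152662) and 13.6 in wild type (45152458 to 45152669), and of 10.3 in the knockout (45188777 to 45189210) and 3.62 in wild type (45188839 to 45189195). BRIP1, a helicase partner of BRCA1, had 6 knockout and 9 wild-type peaks, with shared folds of 8.01 in the knockout (chromosome 17, 61796203 to 61796402) and 7.33 in wild type (61796227 to 61796426) and of 4.303 in the knockout (61808593 to 61808795) and 3.32 in wild type (61808591 to 61808814). The strongest wild-type-only peak of the route was in BRIP1, at chromosome 17, 61721696 to 61721922, with a fold of 13.6. FANCI and FANCD2 form the clamp that is ubiquitinated at crosslinks, and each had 4 peaks in either list. FANCI shared 2 places, with folds of 6.97 in the knockout (chromosome 15, 89267392 to 89267591) and 6.503 in wild type (89267357 to 89267556) and of 5.86 in the knockout (89297901 to 89298678) and 4.91 in wild type (89297900 to 89298191). FANCD2 shared none, although 1 peak of each list came within 185 bp of the other.

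FANCC, FANCA and FANCL are subunits of the core complex, with FANCL as its ubiquitin ligase. FANCC had 6 knockout peaks (folds 4.01 to 9.03), against 2 in wild type (5.32 to 7.99). Its shared place, on the plus strand, lay opposite to FANCC and inside AOPEP, a plus-strand gene. FANCA had 1 knockout peak with a fold of 8.08 on 90 IP reads and no wild-type peak. FANCL had 1 knockout and 2 wild-type peaks and PALB2, the link from BRCA1 to BRCA2, had 1 knockout and 3 wild-type peaks, with none shared in either gene.

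Among the mismatch genes, MSH6, the lesion-sensing partner in the base-mismatch dimer, was the densest of the 51 in the knockout list, with 5 peaks in 27.0 kb (18.5 per 100 kb). All 3 of its wild-type peaks were shared. On the gene's own plus strand the folds were 9.29 in the knockout (chromosome 2, 47798434 to 47798835) and 4.88 in wild type (47798530 to 47798773), and 7.103 in the knockout (47800843 to 47801044) and 7.12 in wild type (47800701 to 47801047). The remaining place was on the minus strand, inside FBXO11, with folds of 10.8 in the knockout (47807889 to 47808172) and 9.56 in wild type (47807987 to 47808220). PMS1, a MutL subunit, had 5 knockout and 4 wild-type peaks and the widest knockout excess at a shared place. That place had a fold of 11.7 from 100 IP reads in the knockout (chromosome 2, 189850489 to 189850767), against 2.65 from 77 IP reads in wild type (189850305 to 189850705). With IP scaled to input depth it had 47.9 reads in the knockout and 46.7 in wild type, and the local input was 3.2 reads in the knockout and 17 in wild type. Its other shared place had a fold of 9.01 from 43 IP reads in the knockout (189811012 to 189811269), against 4.04 from 25 IP reads in wild type (189810965 to 189811168). A knockout-only PMS1 peak at 189863666 to 189864096 had a fold of 16.6.

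MSH3, which recognises small loops, had 8 knockout and 7 wild-type peaks and shared 1 place near its 3′ end, with folds of 7.603 in the knockout (chromosome 5, 80876276 to 80876689) and 7.899 in wild type (80876490 to 80876696). The strongest wild-type-only peak of the mismatch genes was also in MSH3, at chromosome 5, 80783512 to 80783711, with a fold of 8.09 on 14 IP reads. A knockout-only peak lay 0.316 kb from it. PMS2, the MutL endonuclease, had 1 knockout and 2 wild-type peaks, but the genome holds near-identical copies of parts of this gene and its reads are uncertain. MLH3, another MutL subunit, had 1 wild-type peak with a fold of 7.45 on 17 IP reads, and none in the knockout.

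In the excision genes, ERCC8, the CSA protein of transcription-coupled repair, held the most peaks, 6 in the knockout and 10 in wild type (chromosome 5, 60866454 to 60945070). Its shared place at 21.0 kb from the 5′ bound had almost the same fold in both lists, 11.5 in the knockout (60924059 to 60924273) and 11.6 in wild type (60924053 to 60924329). The other shared place had folds of 7.29 in the knockout (60892526 to 60892727) and 8.22 in wild type (60892490 to 60892863), inside the annotated pseudogene GNL3LP1. Between the 21.0-kb place and the gene start, 5 wild-type-only peaks lay within 60933602 to 60938143, with folds of 9.37, 6.05, 5.10, 4.84 and 5.44, and no knockout peak lay among them. ERCC6, the CSB translocase of the same route, had 1 knockout and 2 wild-type peaks. Its shared place had a fold of 4.44 from 160 IP reads in the knockout (chromosome 10, 49524171 to 49524663), against 8.78 from 167 IP reads in wild type (49524173 to 49524673). That place is also inside PGBD3, a gene nested in ERCC6 on the same strand.

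ERCC3 and ERCC2 are the helicases of TFIIH. ERCC3 had 3 knockout and 1 wild-type peak, with 1 shared at folds of 7.82 in the knockout (chromosome 2, 127259474 to 127259673) and 8.71 in wild type (127259473 to 127259672), and a knockout-only peak of 10.8 at 127263608 to 127263818. Another of its knockout peaks lay 0.438 kb from the gene's 5′ bound, the closest to a gene start on the gene's strand, with a fold of 3.27. ERCC2 had 1 wild-type peak, at chromosome 19, 45359655 to 45359863, with a fold of 9.50 on 64 IP reads, and none in the knockout. ERCC5, the 3′ nuclease, had 3 knockout peaks and none in wild type. They lay at chromosome 13, 102862107 to 102862641, 102865667 to 102865866 and 102875351 to 102875885, with folds of 6.41, 8.65 and 10.7 on 38, 21 and 26 IP reads. All 3 are equally within the readthrough gene BIVM-ERCC5. ERCC4, the 5′ nuclease, had 3 knockout and 2 wild-type peaks with 1 shared, at folds of 9.804 in the knockout (chromosome 16, 13935151 to 13935447) and 8.201 in wild type (13935100 to 13935395). XPC, the damage sensor, had 2 knockout and 1 wild-type peak with 1 shared, at folds of 5.21 in the knockout (chromosome 3, 14158680 to 14158916) and 4.36 in wild type (14158576 to 14158915).

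PARP1, the sensor of single-strand breaks, had 1 knockout peak (fold 6.59, 82 IP reads) and no wild-type peak. LIG3, the ligase that seals such breaks, had 1 knockout and 2 wild-type peaks. Its shared place, 2.82 kb from its start, had a fold of 3.84 from 166 IP reads in the knockout (chromosome 17, 34983132 to 34983452), against 5.04 from 181 IP reads in wild type (34983130 to 34983461). The other wild-type peak, with a fold of 7.98 on 15 IP reads, lay opposite to LIG3 and inside RFFL. LIG1, the replicative ligase, had 1 peak in each list 3.35 kb apart, with a fold of 5.80 in the knockout and 2.65 in wild type.

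Among the polymerases, REV3L, the catalytic subunit of polymerase zeta, had 8 knockout and 11 wild-type peaks (chromosome 6, 111299033 to 111483711). Its 3 shared places had folds of 9.33 in the knockout (111373636 to 111374201) and 6.75 in wild type (111373596 to 111373844), 6.06 in the knockout (111375326 to 111375848) and 3.58 in wild type (111375573 to 111375787), and 5.28 in the knockout (111397026 to 111397328) and 4.801 in wild type (111396956 to 111397291), the knockout fold being higher at each. The strongest wild-type-only peak of the route was in REV3L, with a fold of 14.9 at 111412832 to 111413204, and the strongest knockout-only peak, with a fold of 10.7 at 111306176 to 111306407, lay opposite to the gene. POLK, a Y-family polymerase, had 5 peaks in each list. Its shared place at 14.7 kb had a fold of 19.2 from 66 IP reads in the knockout (chromosome 5, 75525289 to 75525604), against 6.74 from 25 IP reads in wild type (75525205 to 75525520). Here the scaled IP differed as much as the local input, with a log2 of knockout over wild type of 1.06 for IP and a local input of 0.7 reads in the knockout and 1.4 in wild type. Its other shared place had folds of 10.9 in the knockout (75546911 to 75547150) and 11.2 in wild type (75546900 to 75547137). POLH, which copies past ultraviolet damage, had 4 knockout and 2 wild-type peaks and POLQ, known for end joining by microhomology, had 4 knockout and 5 wild-type peaks, with 1 place shared in each. POLH had folds of 6.01 in the knockout (chromosome 6, 43602220 to 43602419) and 6.83 in wild type (43602299 to 43602498) there, and POLQ of 7.93 in the knockout (chromosome 3, 121525566 to 121526129) and 6.89 in wild type (121525941 to 121526146). REV1, the scaffold of this route, had 1 peak in each list, that of wild type on the opposite strand.

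The topoisomerases held the largest contrast. TOP1, the enzyme that relaxes DNA by nicking a strand, had 7 knockout and 4 wild-type peaks (chromosome 20, 41028822 to 41124487). At 20.1 kb from its start a shared place had a fold of 25.4 from 120 IP reads in the knockout (41048731 to 41049048), against 7.73 from 62 IP reads in wild type (41048733 to 41048949). At 47.4 kb the order was turned round, since a shared place had a fold of 4.56 from 150 IP reads in the knockout (41076023 to 41076262), against 29.9 from 166 IP reads in wild type (41076007 to 41076288). The knockout fold was thus 3.29 times the wild-type fold at the 20.1-kb place and 0.152 of it at the other. The local input at 20.1 kb was 1.3 reads in the knockout and 4 in wild type, and at 47.4 kb it was 15 reads in the knockout and 2.4 in wild type. The remaining shared TOP1 place hardly differed, with folds of 8.102 in the knockout (41084340 to 41084559) and 7.22 in wild type (41084330 to 41084529). A knockout-only peak 1.18 kb beyond it, at 41085710 to 41085917, had a fold of 10.4.

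TOP2A, the type II enzyme of dividing cells, had 3 knockout and 2 wild-type peaks, with 1 shared place at folds of 10.8 in the knockout (chromosome 17, 40395485 to 40395715) and 9.22 in wild type (40395462 to 40395721). TOP2B, its counterpart in resting cells too, had 4 knockout and 2 wild-type peaks, and its shared place had a fold of 8.11 from 67 IP reads in the knockout (chromosome 3, 25621207 to 25621412), against 3.52 from 66 IP reads in wild type (25621082 to 25621414). A wild-type-only TOP2B peak at 25640749 to 25640953 had a fold of 9.28. TOP3A, the partner of BLM, had 2 wild-type peaks at chromosome 17, 18278096 to 18278451 and 18288886 to 18289151, with folds of 6.99 and 4.82, and no knockout peak.

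**Figure D3:**
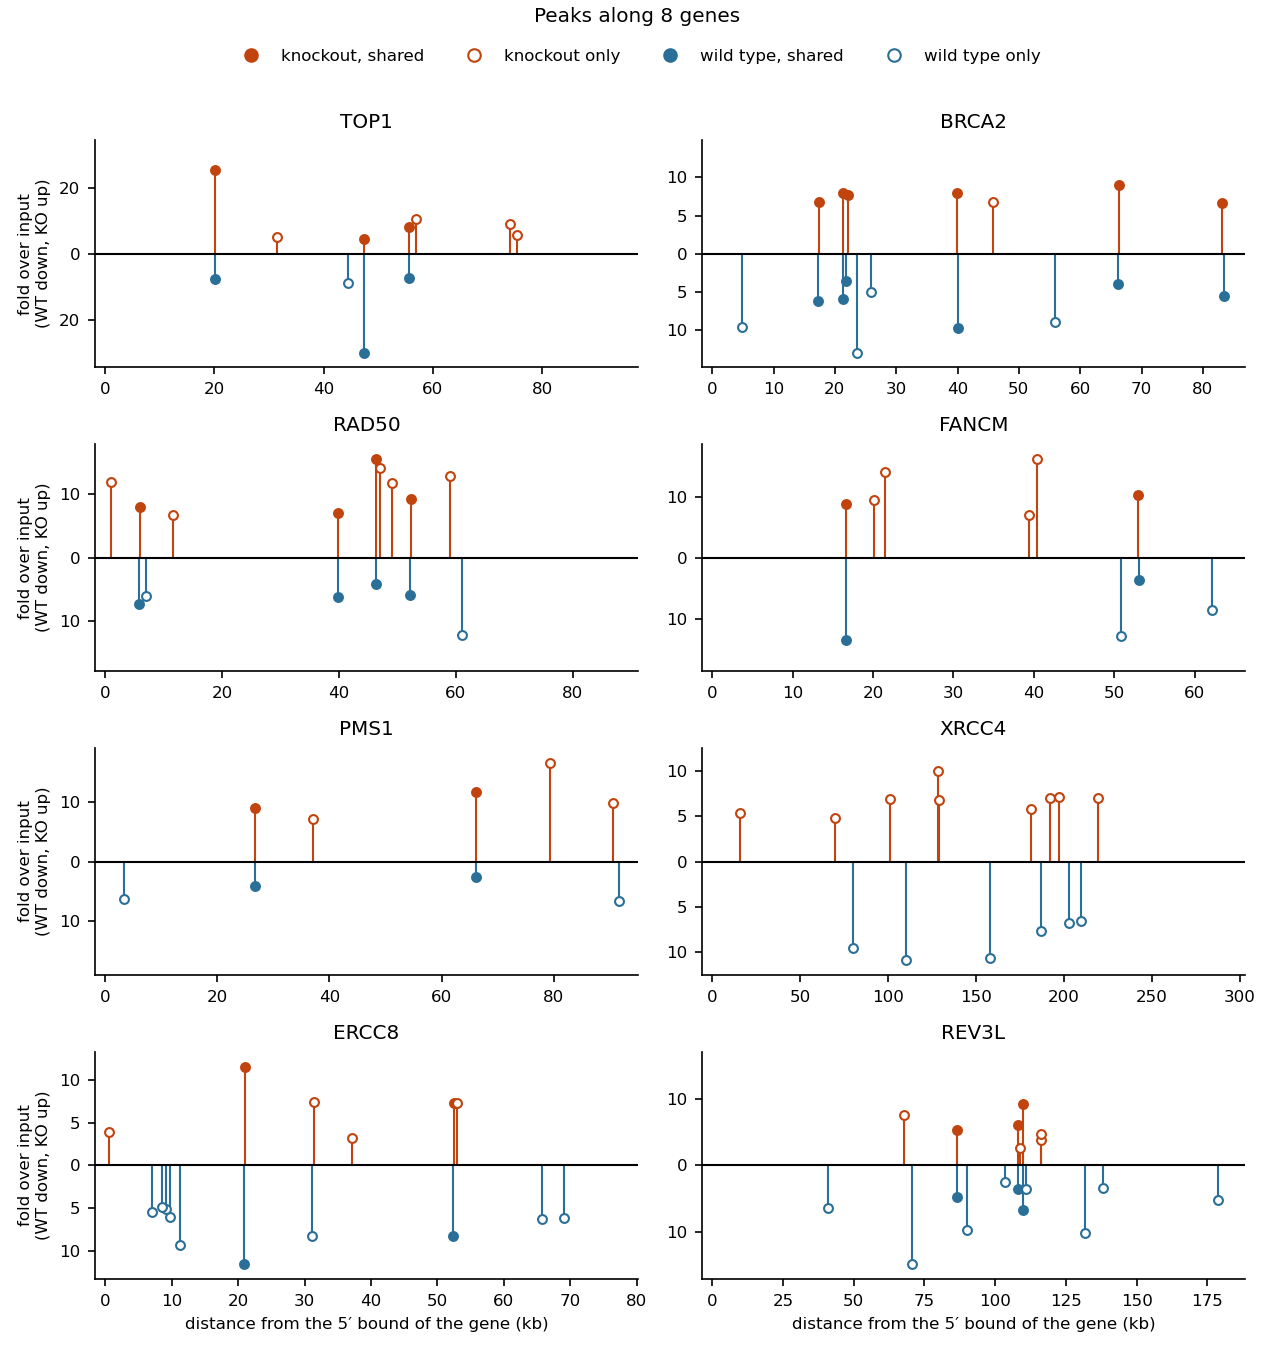
Fold over input (vertical axis, scaled per gene) of each peak on the gene's own strand, by distance of its summit from the 5′ bound in kb, for 8 genes. METTL3-knockout peaks point up and wild-type peaks down; filled circles are shared. XRCC4 has no filled circle, BRCA2 has 6 pairs, and in TOP1 the tallest lines of the lists stand at different places.

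Over all 60 shared pairs the knockout fold was higher in 36 and lower in 24. The median log2 of knockout over wild-type fold was 0.15 (quartiles −0.18 and 0.51), beside 0.02 (−0.50 and 0.52) over 4864 pairs in protein-coding genes. The knockout fold was at least 2 times the wild-type fold in 11 pairs (18.3%, background 11%), which lay in PMS1 and BRCA2 (2 each), RAD50, TOP1, POLK, FANCM, WRN, RAD51B and TOP2B. The wild-type fold was at least 2 times the knockout fold in 5 pairs (8.33%, background 10.3%), which lay in TOP1, BLM, NBN, ATM and RAD51B. By route the median ran from −0.16 in the 7 excision pairs to 0.55 in the 6 mismatch pairs. With only the upper 50% of each list by −log10 q the median over the 35 remaining pairs was −0.0025. The 95% interval of the median, computed as if the 60 pairs were independent, was −0.03 to 0.26. The pairs are not replicates and several share a gene, so it cannot place the median against 0 or the background. Folds have no replicates, and the difference was not tested.

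**Figure D4:**
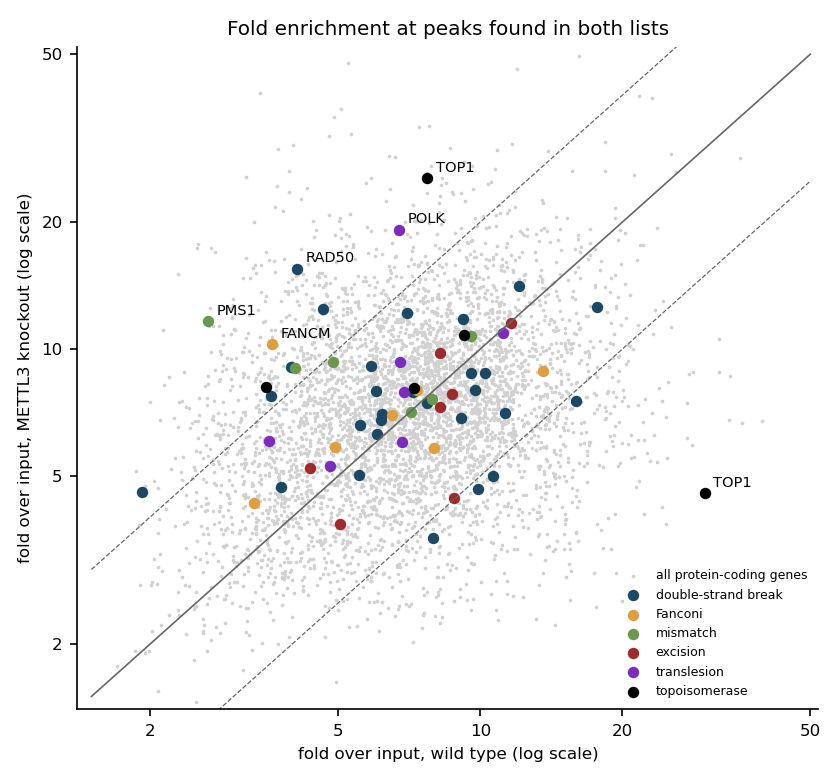
Fold over input in the METTL3 knockout (vertical axis, log scale) against wild type (horizontal axis, log scale) at each pair of overlapping peaks. Coloured points are the 60 pairs of the repair genes by route and grey points the 4864 pairs of all protein-coding genes; the solid line marks equal folds and the dashed lines a 2-fold difference. The 2 labelled TOP1 pairs lie on opposite sides.

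At most shared pairs the log2 ratio of knockout over wild type was larger in absolute size for local input than for scaled IP. Local input is the number of input reads expected over a summit, taken from the recovered values. Both ratios carry any difference in sequencing depth between the lists, which is unknown and was not removed, so the counts below include it. Over all resolved pairs the median ratios were −0.52 (local input) and −0.10 (scaled IP), beside −0.21 and −0.14 in protein-coding genes. Over all 58 pairs with reads resolved in both lists, local input had the larger log2 ratio of knockout over wild type, in absolute size, in 51 (87.9%), beside 74.3% of 4690 pairs in protein-coding genes. Pairs whose folds differed were no exception. Of the 10 pairs with a knockout fold at least 2 times higher and reads resolved in both lists, 8 had a larger log2 ratio of local input than of scaled IP in absolute size. The medians were −1.74 for local input and 0.23 for scaled IP (knockout over wild type). In all 5 pairs with a knockout fold of 0.5 or less of wild type the input ratio was again the larger, with medians of 1.51 for local input and −0.29 for scaled IP. Over all protein-coding genes the input ratio was larger in 89.7% of 515 such higher pairs and 82.2% of 484 lower ones. A pair is sorted here by the ratio that these 2 parts make up, so the counts are a description. Local input was small, from 0.16 to 41 expected reads over the 58 resolved pairs, and its spread between replicates is not known.

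**Figure D5:**
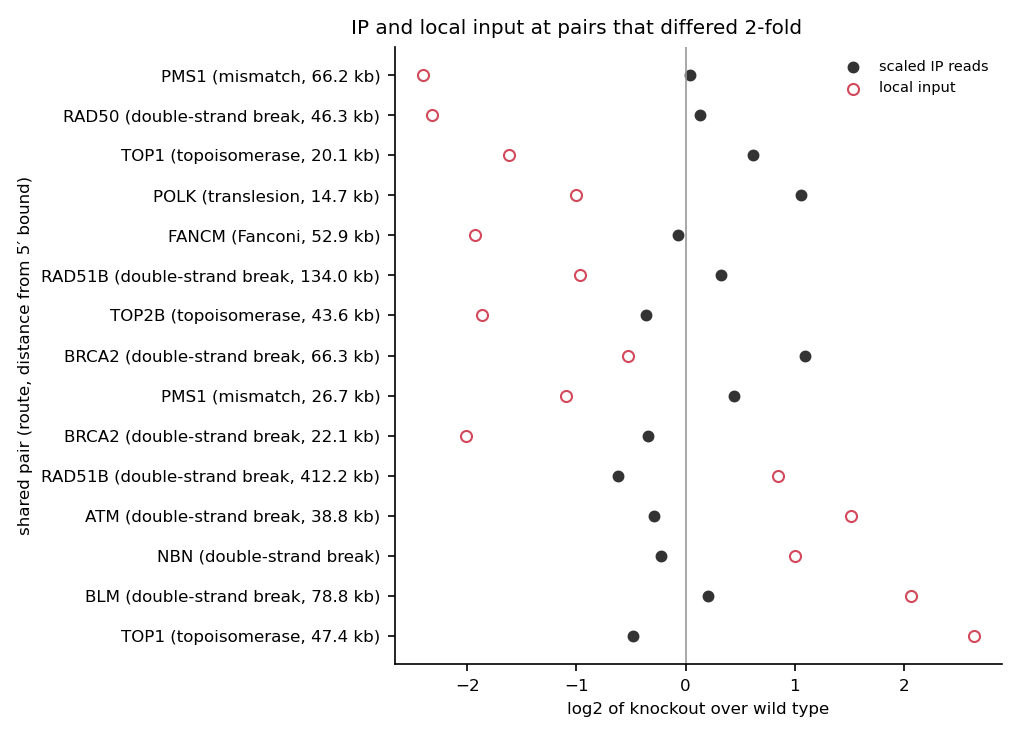
The log2 of knockout over wild type (horizontal axis) for scaled IP reads (filled points) and local input (open points) at the 15 shared pairs whose folds differed 2-fold or more and whose reads were resolved in both lists. Open points lie farther from 0 than filled ones in 13 of the 15 pairs; the exceptions are in POLK and BRCA2.

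Strand was known for 46 of the 51 genes. Peaks followed the strand of the gene in 175 of 181 knockout peaks and 167 of 177 wild-type peaks. The opposite-strand share was thus 3.31% in the knockout and 5.65% in wild type, beside 8.63% (knockout) and 8.01% (wild type) over all protein-coding genes. Of these 6 knockout and 10 wild-type peaks, those in MRE11, FANCC and MSH6 were shared and lay in a gene of the other strand. Along the genes, knockout peaks on the gene's strand were most frequent in the middle when genes were cut into 3 equal stretches, with 45, 81 and 49 from 5′ to 3′, against 56, 65 and 46 wild-type peaks. All protein-coding genes were near even, with 32.7%, 32.1% and 35.1% in the knockout and 33.4%, 31.9% and 34.7% in wild type. RAD51B alone gave 24 of the knockout and 22 of the wild-type peaks, and the split without it was not computed. For genes picked with earlier results of these lists known, the split is not a result about them. Within 500 bp of the 5′ bound lay 1 knockout peak (0.571%) and 0 wild-type peaks, and the shares over all protein-coding genes were also low, at 1.56% (knockout) and 1.99% (wild type). No peak touched any of the 63 promoter windows that the RefSeq table holds for these 46 genes. Each window runs from 250 bases before to 50 after a start, so most of it lies upstream of that start. No share over all genes stands beside this count. XRCC5, which is not in that table, had a wild-type-only peak across its lower bound, at chromosome 2, 216109312 to 216109511, with a fold of 8.94.

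A further 84 genes of DNA repair gave context. Peaks were present in 44 of them in the knockout and in 52 in wild type, with 33 in both, 11 in the knockout alone, 19 in wild type alone and 21 in neither. The 11 of 44 and the 19 of 52 stand beside the 23.6% of knockout-peak genes and 32.8% of wild-type-peak genes, over all protein-coding genes, that lack a peak in the other list. They are shorter (median 30.8 kb) and held 97 knockout and 107 wild-type peaks, of which 26 in each list were shared, where 73.5% of knockout and 78.7% of wild-type peaks in protein-coding genes have no partner. FANCB, a core complex subunit, had 8 knockout and 4 wild-type peaks, and RIF1, which acts with TP53BP1, had 4 knockout and 9 wild-type peaks. XPA, the verifier of excision repair, had 4 knockout peaks and XRCC1, the scaffold of single-strand break repair, had 3, with 0 in wild type. FAN1, a crosslink nuclease, had 0 knockout and 4 wild-type peaks. MCM9 and TDP1 had 5 knockout and 2 wild-type peaks each, and TDP1, which removes stalled TOP1 from DNA, reached a fold of 17.6 in the knockout and 10.8 in wild type. CHEK1, the kinase below ATR, and MDC1, a break-site adaptor, had 2 knockout and 4 wild-type peaks each. XRCC2, APTX and RAD23B had 2 knockout and 3 wild-type peaks each, and DCLRE1C and RPA2 had 1 knockout and 3 wild-type peaks each. RBBP8 had 4 knockout and 2 wild-type peaks, NEIL3 had 4 knockout and 3 wild-type peaks, GEN1 and RPA3 had 3 knockout and 2 wild-type peaks each, and SLX4 had 3 in each list.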

How the data were processed

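Chromosome-associated RNA of METTL3-knockout and wild-type HEK293T cells was measured in 2 replicates each of IP and input. Per the submitters' processing notes the authors used MACS2 2.2.7.1, SAMtools 1.15.1 and HISAT2 2.2.1 with the hg38 build. The deposited fold column is the ratio, on a linear scale, of IP to local input, and the −log10 columns are the deposited −log10 p-value and q-value. The deposited score, meant for display, entered no result. No peak had a −log10 q under 2.02 (knockout) or 2.01 (wild type). How the replicates entered peak calling is not stated in the sources used here.

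Peaks were joined to genes by RefSeq bounds of GRCh38.p14. A peak was called shared when both lists had same-strand peaks there with 1 bp or more in common. Gene strand came from the RefSeq promoter table. Whole IP reads and local input were solved from fold, (scaled IP + 1) / (local input + 1), and p, a Poisson tail, with a fragment of 200 bp inferred from the values; the code was tested on simulated data. Python 3.11.15, numpy 2.4.6, pandas 2.3.3, SciPy 1.17.1 and matplotlib 3.10.9 were used. The genes and lists were chosen with earlier results of these data known. All members are named; positions were given for the strongest peak of each class per route, for all pairs of genes with 2 or more, and for genes with 2 or more peaks in 1 list alone; other positions, and the pairs with a 2-fold difference, were added after values were seen. The other repair genes named have 3 or more peaks in a list. Sequences of the peaks are not shown, as no genome was used here.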

Additional observations from a re-analysis of the deposited data

How the results depend on the processing

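Recomputing the counts, shares and median log2 fold under 7 other settings, under recovered IP over local input for the median alone, and without RAD51B (added after seeing the data) gave 73 values. Of these, 67 stayed within 1.5 times the reported count or within the interval of the reported share or median. With the upper 50% of each list by −log10 q, genes with peaks in the knockout alone numbered 8, genes with none 7, knockout peaks 127 and wild-type peaks 103, as fewer peaks were used. With peaks in exactly 1 gene body, genes in the knockout alone numbered 2 and genes with none 5. The median log2 of knockout over wild-type fold was −0.0025 with the upper 50% and was 0.13 to 0.25 under all others. The value of −0.0025 was counted as staying because the interval of the median is wide enough to hold it. Unpartnered shares ranged from 67.1% to 74.7% in the knockout and from 66.0% to 75.4% in wild type, with the wild-type background at 76.7% to 82.3%; the knockout share exceeded its background (72.4% against 72.0%) with the upper 50%. No paired analysis was possible because the lists carry no replicates, and leaving out a replicate was not possible for the same reason.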
